A study of Mus musculus with 4 samples.

Results

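Brain endothelial cells, the cells that line the blood vessels of the brain, made up a small share of 4 droplet libraries labelled as microglia. They were chosen by a fixed rule on each barcode: 300 or more genes detected, at most 10% mitochondrial UMIs, at least 3 of the 6 genes Cldn5, Ly6c1, Slco1a4, Itm2a, Pltp and Abcb1a detected, Cldn5 at 1 UMI or more, and at most 1 of the microglia and macrophage genes P2ry12, Tmem119 and Mrc1 detected. A UMI (unique molecular identifier) counts 1 captured RNA molecule. The rule found 117 cells among 23339 barcodes that passed the gene and mitochondrial filter. Most passing barcodes (19112) were gated as microglia. The endothelial cells comprised 26 of 7635 barcodes in the Wild-type library, 24 of 5189 in the TERF2DN-Tg library, 32 of 5341 in the APP/PS1 library and 35 of 5174 in the APP/PS1; TERF2DN library.

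The series asks what senescence of endothelial cells does to microglia in APPswe/PS1dE9 mice, a transgenic model that deposits amyloid-beta in the brain. Its 4 groups differ by 2 alleles: Wild-type mice carry neither, TERF2DN-Tg mice carry the TERF2DN transgene, APP/PS1 mice carry the amyloid transgenes, and APP/PS1; TERF2DN mice, called double transgenic below, carry both. All were brain samples labelled as microglia, taken by magnetic sorting with an anti-CD11b antibody in a protocol that names microglia and endothelial cells together. The sources used here do not name the promoter that drives TERF2DN, the age or sex of the mice, or the number of animals per library. With 1 library per genotype there is no replicate, so genotype, animal and library cannot be told apart, no test was made, and every interval below covers counting error only.

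Endothelial cells of the brain form the blood-brain barrier. Tight junctions built on claudin-5 seal the path between cells, efflux pumps return foreign compounds to the blood, and dedicated carriers bring in glucose, amino acids, hormones and iron. The lining changes along the vessel from arteries through capillaries to veins, and each zone has its own gene set. The barrier programme is kept on by Wnt signals from the surrounding tissue, while VEGF, Notch and blood flow shape vessel growth and arterial identity. TERF2, a shelterin protein, protects chromosome ends, and loss of that protection is a known trigger of p53 and of its target CDKN1A (p21), a brake on the cell cycle.

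The members held between 163090 and 283574 UMIs per library, with medians of 5356 to 6148.5 UMIs per cell and single cells from 648 to 47423 UMIs. All 6 genes of the rule were detected in 100 of the 117 cells, and 25 cells held a UMI of 1 of the 3 exclusion genes. Just outside the rule lay 2 barcodes with Cldn5 but only 2 of the 6 genes, 3 that met the rest without Cldn5, 9 with 2 or 3 of the exclusion genes, and 5 that failed the first filter. All 22 further pan-endothelial markers were detected in every library, and their summed level was 24156, 24207.5, 28189.5 and 22445 counts per 1000000 UMIs (CPM) in the Wild-type, TERF2DN-Tg, APP/PS1 and double transgenic members, against 771 to 863 CPM in the gated microglia of the same libraries. Pecam1, Cdh5 and Flt1, which are no part of the rule, were present in 32, 28 and 32 of the 35 double transgenic cells, so the members went with their label. The libraries shared 7 to 13 barcodes pairwise, and no member was among them.

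RNA of other cell classes was present in some members. The 16 microglial marker genes summed to 550, 1331, 1556 and 5419 CPM in the 4 libraries in the order above, and in the gated microglia to at least 55575.5 CPM. The 10 pericyte markers summed to 3883, 2680, 1077 and 2365 CPM. Over 1% of UMIs fell on the markers of microglia, border macrophages, pericytes, smooth muscle or fibroblasts in 3, 3, 1 and 3 cells, called mixed cells below. The largest Wild-type cell, with 47423 UMIs, held 16.7% of that library's endothelial UMIs and 98.4% of its fibroblast-marker UMIs. What part this RNA had in the differences below was not tested, and values without the mixed cells are given where they changed a count.

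Terf2 was read first, since the transgene is named for it. The members held 6 UMIs in 6 Wild-type cells, 16 in 11 TERF2DN-Tg cells, 2 in 2 APP/PS1 cells and 14 in 8 double transgenic cells. That is 21.2, 98.1, 10.4 and 68.3 CPM, so that both libraries that carry TERF2DN stood above both that do not. The ratio was 4.64 (95% interval 1.72 to 14.5) for TERF2DN-Tg against Wild-type and 6.56 (1.51 to 59.5) for double transgenic against APP/PS1. In gated microglia, Terf2 lay between 16.4 and 19.5 CPM in all 4 libraries. The deposited counts do not separate transgene from endogenous transcripts.

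Members were compared on UMIs summed over the cells of a library, on which fewer cells and less RNA per cell cannot be told apart. A gene was called higher or lower where its CPM + 20 differed by 2-fold or more between 2 libraries and it reached 100 CPM in at least 1 of them. Under that call, 2.03% of 1969 genes were higher and 2.18% lower in APP/PS1 than in Wild-type members, 1.98% higher and 2.54% lower in TERF2DN-Tg than in Wild-type members, 4.19% of 1911 genes higher and 3.77% lower in double transgenic than in APP/PS1 members, and 4.45% of 1912 genes higher and 3.29% lower in double transgenic than in TERF2DN-Tg members. The median log2 ratio over all these genes was 0.02, -0.06, -0.08 and -0.03 in that order. The comparisons share libraries, so they are given side by side and not as independent results.

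The structural genes of the barrier lay close together in all 4 libraries. Cldn5, the claudin that seals the junction and a gene of the rule, was at 6732, 5911, 7459 and 5516 CPM in the Wild-type, TERF2DN-Tg, APP/PS1 and double transgenic members. Cdh5, the adherens junction cadherin, was at 388, 374, 437 and 410 CPM, and Ocln, the tight junction protein occludin, at 166, 233, 182 and 176 CPM. No library stood apart in either. Of 22 junction genes, 14 or 15 reached the level needed in each comparison, and Gja4, a gap junction gene of arterial endothelium, was the only one called, higher in APP/PS1 than in Wild-type and in double transgenic than in TERF2DN-Tg members. The first call was lost without the highest cell of each library (log2 ratio 0.75) and the second without the Cytl1-rich cells described below, which held 20 of the 24 double transgenic UMIs. That is 0 or 1 of 14 or 15 genes, beside 4.22%, 4.52%, 7.95% and 7.74% of all genes called in either direction. The efflux pump genes Abcb1a (P-glycoprotein, a gene of the rule) and Abcg2 (breast cancer resistance protein) were highest in Wild-type and lowest in double transgenic members, at 1495 and 1127 CPM for Abcb1a and 1040 and 814 CPM for Abcg2. Neither passed the 2-fold call in any comparison.

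Calls among the nutrient carriers lay mostly in the double transgenic library. Slc7a1, a carrier of cationic amino acids, was at 666, 448, 458 and 205 CPM in the 4 libraries, with UMIs in 24 of 26, 19 of 24, 23 of 32 and 15 of 35 cells. The double transgenic level was the lowest, with a ratio of 0.447 (0.302 to 0.653) to APP/PS1 and 0.458 (0.305 to 0.678) to TERF2DN-Tg members. Tfrc, the transferrin receptor that takes up iron, was at 360, 362, 250 and 137 CPM and passed the call only between the double transgenic and TERF2DN-Tg members, at a ratio of 0.377 (0.232 to 0.601). Slc2a1, the glucose transporter GLUT1, had the opposite order, at 1418, 1570, 1520 and 2107 CPM, below the 2-fold call. Over the 26 carrier genes, 1 of 17 measured was higher and 2 were lower in double transgenic than in APP/PS1 members (median log2 ratio -0.32), and 0 were higher and 3 lower than in TERF2DN-Tg members (median -0.34), beside 4.19% and 3.77%, and 4.45% and 3.29%, of all genes. Against Wild-type members, 1 of 21 carriers was lower in APP/PS1, the amino acid carrier Slc38a5, and 0 were called in TERF2DN-Tg, with medians of -0.42 and -0.38, beside 2.18% and 2.54% of all genes lower. Without the cells rich in Cytl1 described below, Slc7a1 was at 246 CPM in the double transgenic library and no longer passed the call, and the medians were 0.01 and -0.01. Slc7a1 lay near the threshold throughout: scaled by size factors, its log2 ratio was -0.98 to both libraries. Kdr, the main VEGF receptor, was the 1 pan-endothelial marker called, at 666, 429, 520 and 185 CPM, with UMIs in 24, 22, 26 and 18 cells. Its ratio in double transgenic members was 0.356 (0.238 to 0.522) to APP/PS1 and 0.432 (0.283 to 0.65) to TERF2DN-Tg members. Without the Cytl1-rich cells it was at 210 CPM, and the log2 ratio to TERF2DN-Tg members, -0.97, no longer passed the call. Gated microglia held at most 13.9 CPM of Slc7a1 and 5.63 CPM of Kdr.

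**Figure D1:**
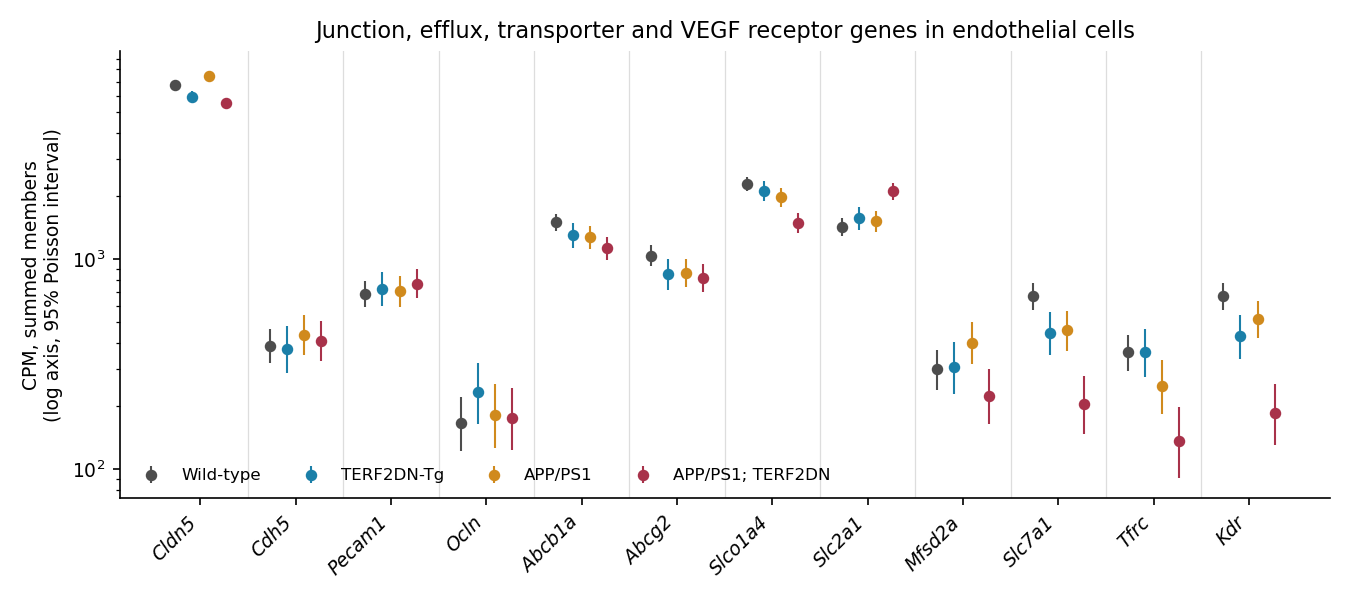
Levels of junction, efflux, carrier and VEGF receptor genes in endothelial cells, as CPM of the summed cells of each library on a log axis, with 1 point per library and bars for the exact 95% Poisson interval. Cldn5 lies between 5516 and 7459 CPM in all 4 libraries, while Slc7a1, Tfrc and Kdr are lowest in the APP/PS1; TERF2DN library.

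Genes of the vessel zones differed between the libraries. Of the 19 arterial genes, 6 of 9 measured were higher and 0 lower in APP/PS1 than in Wild-type members (median log2 ratio 1.55), beside 2.03% and 2.18% of all genes, and 4 of 8 were higher and 0 lower in TERF2DN-Tg than in Wild-type members (median 0.70), beside 1.98% and 2.54%. Smooth muscle markers, of the cells that wrap arteries, moved with the first of these: 2 of 5 measured (Acta2 and Tagln) were higher in APP/PS1 than in Wild-type members, at a median of 0.99, and the 10 markers summed to 515, 282, 921 and 775 CPM. Of the Acta2 UMIs, 22 of 24 in APP/PS1 and 26 of 28 in double transgenic members were in 1 cell. No cell held over 1% of UMIs on these markers, the highest shares being 0.997% in APP/PS1 and 0.809% in double transgenic members. Leaving out the mixed cells therefore removes no cell on account of these markers. Their part in the arterial result was not tested. Bmx, an arterial tyrosine kinase, was at 42.3, 172, 193 and 268 CPM, from 4, 6, 11 and 11 cells, so Wild-type stood below the other 3. Stmn2, a microtubule regulator and arterial marker, was also lowest in Wild-type, at 98.7, 245, 344 and 307 CPM. In the double transgenic library, the 8 Cytl1-rich cells described below held 35 Bmx UMIs (63.6%) and 39 Stmn2 UMIs (61.9%). Its other 27 cells were at 120 CPM of Bmx and 144 CPM of Stmn2. Sema3g, a semaphorin of arterial endothelium, was at 31.7, 110, 98.9 and 68.3 CPM, from 5, 9, 12 and 9 cells. Alpl, the alkaline phosphatase of the arteriolar side, was at 67, 184, 234 and 43.9 CPM, so here the double transgenic level was as low as Wild-type. Gkn3, a gastrokine found in brain arteries, had 5, 0, 52 and 14 UMIs, in 3, 0, 7 and 5 cells. A count of 0 in TERF2DN-Tg members allows up to 18.4 CPM.

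The venous genes ran the other way against Wild-type. Of 18, 0 of 12 measured were higher and 6 lower in APP/PS1 members (median log2 ratio -1.07), beside 2.03% and 2.18% of all genes. In TERF2DN-Tg members 0 were higher and 5 lower (median -0.90), beside 1.98% and 2.54%. Much of this lay in 1 cell: the largest Wild-type cell held 75.5% of the venous-list UMIs of its library, and 1255 of the 1256 UMIs of Ptgds, a prostaglandin synthase that is also a fibroblast marker, were in 1 cell. Without the mixed cells, 3 of 9 measured venous genes were lower in APP/PS1 and 1 of 9 in TERF2DN-Tg members, with medians of -0.83 and -0.46. Over all genes in that setting, 48 of 2012 and 68 of 2023 were lower in these comparisons. Nr2f2, the transcription factor COUP-TFII that specifies veins, was called in both, with and without the mixed cells. It had 38 UMIs in 8 Wild-type cells, 4 in 2 TERF2DN-Tg cells, 5 in 3 APP/PS1 cells and 12 in 5 double transgenic cells. That is 134, 24.5, 26 and 58.5 CPM, with ratios to Wild-type of 0.183 (0.0474 to 0.508) and 0.194 (0.0597 to 0.494). The arterial counts without the mixed cells were 7 of 10 in APP/PS1 and 5 of 9 in TERF2DN-Tg members, beside 58 of 2012 and 59 of 2023 genes higher. Both zone patterns rested partly on members that held a UMI of P2ry12, Tmem119 or Mrc1, 10 in Wild-type, 7 in TERF2DN-Tg and 4 in APP/PS1. In which library these cells mattered was not tested. With all members holding any of the 3 genes left out, 16 Wild-type, 17 TERF2DN-Tg and 28 APP/PS1 cells remained. The arterial median was then 0.61 in APP/PS1 and -0.43 in TERF2DN-Tg against Wild-type members. Bmx then had a log2 ratio of -0.48 for TERF2DN-Tg against Wild-type, and Nr2f2 of -0.37 for TERF2DN-Tg and -0.48 for APP/PS1, short of the call. Of the capillary genes, 0 of 15 were called in either comparison with Wild-type, with medians of -0.29 and -0.02. In double transgenic members 3 of 13 (Rgcc, Car4 and Pglyrp1) were higher and 1 (Kdr) lower than in APP/PS1, at a median of -0.47, beside 4.19% and 3.77% of all genes. Against TERF2DN-Tg members 0 were higher and 2 (Tfrc and Kdr) lower, at a median of -0.38, beside 4.45% and 3.29%. The 8 Cytl1-rich cells described below held 24 capillary-list UMIs, against 1739 in the other 27 double transgenic cells. The 7 cells richest in Cdkn1a, also described below, held 279 Pglyrp1 and 92 Rgcc UMIs, against 126 and 22 in 20 others. With 24 to 35 cells per library, these sums rest on few vessel segments: 4 Wild-type cells held all Bmx UMIs.

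**Figure D2:**
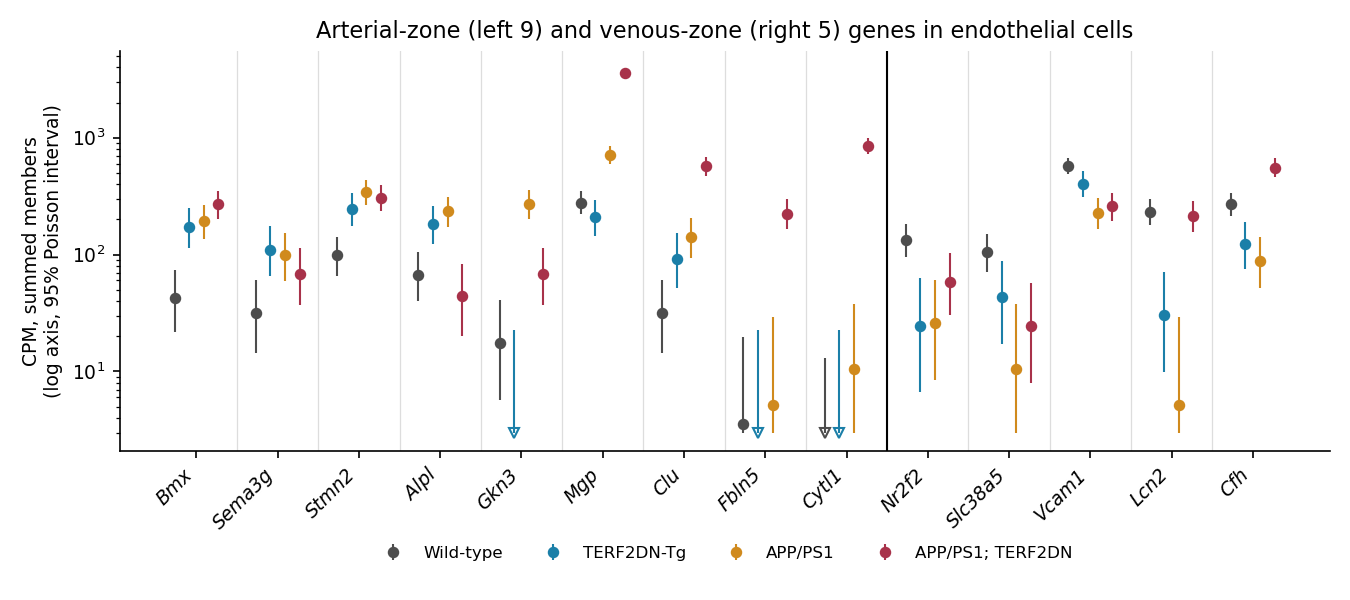
Levels of 9 arterial-zone genes and 5 venous-zone genes in endothelial cells, as CPM of the summed cells of each library on a log axis, with exact 95% Poisson intervals and downward triangles where no UMI was counted. Bmx and Stmn2 are lowest in the Wild-type library, Nr2f2 is highest there, and Mgp, Fbln5 and Cytl1 are highest in the APP/PS1; TERF2DN library.

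A second arterial pattern belonged to 8 cells of the double transgenic library. Cytl1, which encodes a small secreted cytokine-like protein, had 0, 0, 2 and 175 UMIs in the 4 libraries. The 2 APP/PS1 UMIs lay in 2 cells, and 174 of the 175 double transgenic UMIs lay in 8 of the 35 cells, each with 2 UMIs or more. Among Wild-type and TERF2DN-Tg members, 0 of 26 and 0 of 24 cells had a UMI, which allows shares of up to 11.5% and 12.5%. Cytl1 was seen in at most 0.123% of gated microglia, at median depths of 5158.5 to 6596 UMIs per microglial cell. The 8 cells were set apart after their Cytl1 counts were seen, so what follows describes them and tests nothing. They held 38169 UMIs, 18.6% of the library's endothelial UMIs, with 860 to 18279 UMIs per cell and a median of 2542.5, against 5431 in the other 27 cells.

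The same 8 cells carried most of the matrix and arterial transcripts of their library. Mgp, the matrix Gla protein that inhibits calcification of the arterial wall, had 657 UMIs in 8 of the 8 cells and 83 in 9 of the other 27, or 17213 against 497 CPM. Over the libraries Mgp was at 279, 208, 713 and 3609 CPM, and 328 of the 740 double transgenic UMIs lay in 1 cell. Fbln5, which assembles elastic fibres, had 45 UMIs in 7 of the 8 cells and 1 UMI in the other 27. Bgn, the matrix proteoglycan biglycan, had 87 and 4 UMIs, Igfbp3 and Igfbp4, carriers of insulin-like growth factors, had 59 and 2 and 37 and 0, and Clu, the chaperone clusterin, had 92 and 25. Eln (elastin), with 30 and 3 UMIs, and Timp4, an inhibitor of matrix proteases, with 21 and 0, were named after their values were seen. The largest of the 8 cells held 18279 of their 38169 UMIs, and much of each sum lay in 1 cell. The highest cell of each gene held 28 of the 45 Fbln5, 48 of the 87 Bgn, 32 of the 59 Igfbp3 and 14 of the 37 Igfbp4 UMIs. For Clu it held 44 of 92, for Eln 23 of 30 and for Timp4 14 of 21. UMIs lay in 6 of the 8 cells for Bgn, 7 for Igfbp4, 5 for Igfbp3 and Eln, 4 for Timp4 and 8 for Clu. Of 13 arterial genes measured between the 2 sets of cells, 11 were over 2-fold higher and 0 lower in the 8 cells, 1 of the 11 being Cytl1, by which the cells were chosen. Of all 2146 genes measured in this split, 14.8% were over 2-fold higher and 26.3% lower.

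Most barrier carriers were low or at 0 in the 8 cells. Cldn5, required by the rule, was at 5266 CPM in the 8 cells and 5573 in the other 27. Pecam1, the platelet endothelial adhesion molecule, was at 1598 and 575 CPM, and 37 of its 61 UMIs in the 8 cells were in 1 cell. Slco1c1, a carrier of thyroid hormone, had 0 UMIs in the 8 cells and 129 in the other 27. Mfsd2a, the lipid carrier of the barrier, had 0 and 46 UMIs, Slc7a5, the large neutral amino acid carrier, had 0 and 68, and Car4, a capillary carbonic anhydrase, had 0 and 119. The chemokine Cxcl12, with 0 and 377 UMIs, and the protease inhibitor gene Ctla2a, with 0 and 717, were named after their values were seen. Of the capillary genes, 13 of 14 measured were over 2-fold lower in the 8 cells, and of the carriers 15 of 18, beside the 26.3% of all genes. The 10 pericyte markers had 0 UMIs in the 8 cells, the 10 smooth muscle markers 6 UMIs in 2 genes and the 10 fibroblast markers 3 UMIs, so defining markers of these wall cells were at or near 0.

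The 8 cells were chosen by Cytl1, itself on the arterial list, and were left out of the double transgenic library only. A fall in its arterial genes without them was therefore built in. The values show only how much of the arterial call lay in these cells. With them, 4 of 11 measured arterial genes (Mgp, Fbln5, Cytl1 and Clu) were higher and 2 (Gkn3 and Alpl) lower than in APP/PS1 members, at a median log2 ratio of 0.44. Without them, 0 of 10 were higher and 3 (Gkn3, Stmn2 and Alpl) lower, at a median of -0.55. Mgp then stood at 497 CPM, beside 713 CPM in APP/PS1 members, from which no cell was left out.

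**Figure D3:**
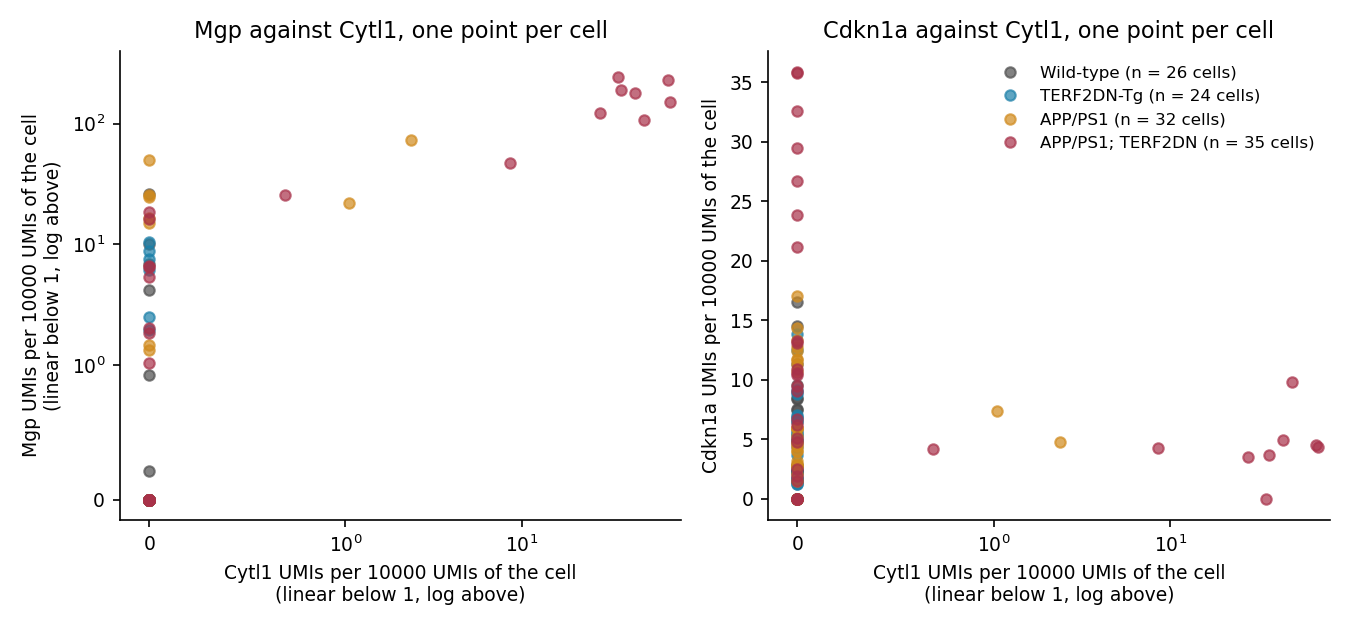
Mgp (left, y axis) and Cdkn1a (right, y axis) against Cytl1 (x axis) in single endothelial cells, each as UMIs per 10000 UMIs of the cell, with 1 point per cell coloured by library. The Cytl1 axes and the Mgp axis are linear below 1 and log above. The 8 APP/PS1; TERF2DN cells with 2 or more Cytl1 UMIs lie at the right, high in Mgp and not among the cells highest in Cdkn1a.

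Because Cytl1, Bgn and Igfbp4 shared these cells while Slco1c1 and Car4 were at 0 in them, the 250 bases before the RefSeq start of each gene are shown 5′ to 3′ in gene sense, with matches to the core letters GGAAG of ETS factors (either strand, so also CTTCC) in capitals. All are on the + strand of GRCm38.p6: Cytl1 at chr5:37735269-37735518, Bgn at chrX:73483351-73483600, Igfbp4 at chr11:99040994-99041243, Slco1c1 at chr6:141524104-141524353 and Car4 at chr11:84957504-84957753.
Cytl1: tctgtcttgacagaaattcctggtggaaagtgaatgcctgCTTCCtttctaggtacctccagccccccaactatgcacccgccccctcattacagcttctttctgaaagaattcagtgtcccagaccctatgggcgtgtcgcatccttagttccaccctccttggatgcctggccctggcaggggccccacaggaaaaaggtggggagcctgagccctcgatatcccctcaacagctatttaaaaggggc
Bgn: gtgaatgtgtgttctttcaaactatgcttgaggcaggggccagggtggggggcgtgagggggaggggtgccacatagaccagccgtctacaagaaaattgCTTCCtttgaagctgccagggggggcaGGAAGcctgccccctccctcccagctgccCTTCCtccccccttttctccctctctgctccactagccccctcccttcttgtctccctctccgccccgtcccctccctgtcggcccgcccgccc
Igfbp4: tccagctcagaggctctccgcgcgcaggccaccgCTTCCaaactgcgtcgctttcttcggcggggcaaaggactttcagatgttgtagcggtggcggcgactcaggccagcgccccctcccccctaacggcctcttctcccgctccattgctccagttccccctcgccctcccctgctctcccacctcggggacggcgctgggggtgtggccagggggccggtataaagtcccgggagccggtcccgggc
Slco1c1: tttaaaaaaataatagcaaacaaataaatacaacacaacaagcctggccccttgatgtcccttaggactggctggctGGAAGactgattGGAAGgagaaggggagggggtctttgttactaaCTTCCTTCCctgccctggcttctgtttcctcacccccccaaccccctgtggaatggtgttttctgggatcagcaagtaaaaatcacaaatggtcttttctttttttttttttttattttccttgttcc
Car4: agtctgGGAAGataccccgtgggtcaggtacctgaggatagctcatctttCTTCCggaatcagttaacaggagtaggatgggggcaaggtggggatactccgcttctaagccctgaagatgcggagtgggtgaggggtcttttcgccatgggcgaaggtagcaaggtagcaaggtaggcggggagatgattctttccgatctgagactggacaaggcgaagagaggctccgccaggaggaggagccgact
The windows held 1, 3, 1, 4 and 2 matches in that order, of which 2 in Slco1c1 overlap by 1 base. Of 27025 promoter windows of this length, 63.62% held at least 1. The core letters ACAAT of SOX factors (either strand) were in none of the 5 windows and in 28.35% of all. A match describes letters only, and both sets of genes held the ETS letters.

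Of the regulators of the vessel wall, few passed the call. Among 21 Wnt and beta-catenin genes, 0 of the 13 to 16 measured were called in any comparison, with median log2 ratios of -0.23 in APP/PS1 and -0.26 in TERF2DN-Tg against Wild-type members and -0.41 and -0.44 in double transgenic against APP/PS1 and TERF2DN-Tg members. Lef1, a nuclear partner of beta-catenin, was at 543, 374, 406 and 317 CPM, highest in Wild-type and lowest in double transgenic members. The flow-responsive genes had no call either; Klf2, induced by laminar flow, was at 1908, 1294, 1754 and 1039 CPM, lower in both TERF2DN libraries than in both others. Jag2, a Notch ligand, was at 88.2, 123, 255 and 215 CPM and was called higher in APP/PS1 than in Wild-type members. Notch1, a Notch receptor, was at 296, 129, 245 and 185 CPM and was called lower in TERF2DN-Tg than in Wild-type members, though not without the members that held an exclusion gene (log2 ratio -0.69). Tmem100, a target of BMP signalling in arterial endothelium, was at 67, 24.5, 161 and 34.1 CPM, higher in APP/PS1 than in Wild-type members and lower in double transgenic than in APP/PS1 members, from 6, 2, 6 and 4 cells. Angpt2, the TIE2 ligand that destabilises vessels, was called higher in TERF2DN-Tg members, where 15 of its 18 UMIs lay in 1 cell.

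Leukocyte adhesion genes gave little. Of 22, 11 or 12 were measured in each comparison, and the only call was a lower level of Vcam1, the vascular cell adhesion molecule, in APP/PS1 than in Wild-type members. Vcam1 was at 578, 405, 229 and 258 CPM, and 80 of the 164 Wild-type UMIs were in 1 cell. Without members that held a UMI of P2ry12, Tmem119 or Mrc1, its log2 ratio turned from -1.26 to 2.29. Icam2, present on resting endothelium, was at 173, 98.1, 203 and 137 CPM. Selp and Sele, the selectins that catch rolling leukocytes on activated vessels, had 0 UMIs in all 4 libraries, which allows at most 10.6 to 18.4 CPM each.

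Immediate-early genes, transcribed within minutes of a stimulus and also of tissue dissociation, were called downward and not upward in each TERF2DN library against its counterpart without the transgene. Of 21, 0 of 15 measured were higher and 4 lower in TERF2DN-Tg than in Wild-type members (Fosb, Junb, Atf3 and Zfp36, median log2 ratio -0.47, beside 2.54% of all genes lower), and 0 of 13 were higher and 3 lower in double transgenic than in APP/PS1 members (Fos, Jun and Dusp1, median -0.48, beside 3.77%). In APP/PS1 against Wild-type members 0 of 15 were called, with a median of 0.07. Fos, a subunit of AP-1, was at 406, 288, 474 and 137 CPM, from 12, 8, 15 and 12 cells. In Wild-type members 45 of its 115 UMIs were in 1 cell. Dusp1, a phosphatase that ends MAP kinase signals, was at 342, 172, 458 and 200 CPM, from 20 of 26, 10 of 24, 22 of 32 and 16 of 35 cells, so both TERF2DN libraries lay below both others. Fosb, another AP-1 subunit, had the same order, at 109, 30.7, 93.7 and 39 CPM. Junb did not keep it: at 423, 184, 520 and 390 CPM, it lay just past the call upward in double transgenic against TERF2DN-Tg members, at a log2 ratio of 1.01. Without the mixed cells, 8 of 16 measured genes were lower in TERF2DN-Tg than in Wild-type members (median -0.89), and 3 of 14 in double transgenic than in APP/PS1 members. Without the Cytl1 cells only Fos of 13 was called in the second comparison, and Jun and Dusp1 were at -0.95 and -0.91. The time each brain spent in dissociation is not known here. Heat shock genes, another sign of handling, had 1 call, a higher Hspa1a (an inducible HSP70) in APP/PS1 than in Wild-type members, at 161 against 63.5 CPM.

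Cdkn1a, the p21 gene, was not uniformly higher in the cells of any library. It was at 455, 491, 651 and 1112 CPM in the Wild-type, TERF2DN-Tg, APP/PS1 and double transgenic members, from 129, 80, 125 and 228 UMIs in 23 of 26, 20 of 24, 26 of 32 and 29 of 35 cells. The ratio of double transgenic to TERF2DN-Tg members was 2.27 (1.75 to 2.96), that to APP/PS1 members 1.71 (1.37 to 2.14), and that of TERF2DN-Tg to Wild-type members 1.08 (0.805 to 1.44). The median cell, however, was at 4.49, 4.45, 4.57 and 5.12 Cdkn1a UMIs per 10000 UMIs. The sum rested on 7 double transgenic cells, at 21.1 to 35.8 per 10000, which lay above the highest cell of each other library (16.5 in Wild-type, 13.8 in TERF2DN-Tg and 17.1 in APP/PS1). The next double transgenic cell was at 13.2. The 7 cells held 153 of the 228 UMIs (67.1%), and without them the library was at 495 CPM. Gated microglia were at 16.2 to 30.5 CPM.

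The 7 cells with the most Cdkn1a, chosen for that value and described without a test, were other cells than the 8 with Cytl1. None of them had 2 Cytl1 UMIs, and they had 5431 to 9466 UMIs each. The 20 double transgenic cells in neither set held more RNA of other classes. Of the markers measured, 9 of 9 microglial, 5 of 5 smooth muscle, 3 of 4 pericyte and 0 of 2 astrocyte genes were over 2-fold lower in the 7 cells. Apoe had 94 UMIs in the 7 and 1208 in the 20. What part this RNA had in the shares below was not tested. Compared with the 20 double transgenic cells in neither set, 4 of 14 capillary genes measured were over 2-fold higher (Rgcc, Hmcn1, Lrrc8c and Pglyrp1) and 2 lower (Car4 and Slc16a1), beside 12.3% higher and 11.5% lower of all 2062 genes measured. Among 13 glucocorticoid and hypoxia responsive genes, 8 were higher and 0 lower, at a median log2 ratio of 1.16, beside 0.12 for all genes. These were Angptl4, Nfkbia, Cebpd, Sult1a1, Nostrin, Mt1, Mt2 and Cdkn1a, by which the cells were chosen. Of 8 CDK inhibitors and p53 targets measured, 3 were higher (Trp53inp1, Pmaip1 and Cdkn1a itself) and 0 lower, at a median of 0.48. Of 8 secreted senescence-associated genes, 4 were higher (Igfbp7, Icam1, Angptl4 and Tgfb1) and 3 lower (Timp2, Timp3 and Spp1). Of 3 NF-kB and inflammatory genes, 2 were higher (Nfkbia and Cebpd) and 0 lower. Mt2 had 48 UMIs in 5 of the 7 cells, 36 of them in 1 cell, and 3 UMIs in the 20. Pglyrp1, a peptidoglycan recognition protein of brain capillaries, had 279 UMIs in the 7 cells and 126 in the 20. Rgcc, a cell cycle regulator and capillary gene, had 92 UMIs in the 7 cells, 42 of them in 1 cell, and 22 in the 20. Car4 had 21 and 98. Mt1, a metallothionein that binds zinc and rises with glucocorticoids and metals, had 138 UMIs in 4 of the 7 cells and 38 in 14 of the 20. Cebpd, a transcription factor of the acute phase, had 47 and 30 UMIs. Terf2 had 6 UMIs in 3 of the 7 cells, 7 UMIs in 4 of the 20 and 1 UMI in 1 of the 8 Cytl1 cells. Tnfrsf12a, a TWEAK receptor, with 14 UMIs in 7 of the 7 cells and 4 UMIs in 2 of the 20, was named after its values were seen.

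The other cell cycle inhibitors and p53 targets with values had other orders than Cdkn1a. Of 24, 5 reached the level needed in each comparison. Cdkn1c, the inhibitor p57, was at 176, 166, 187 and 39 CPM, from 17, 11, 16 and 5 cells, lowest in double transgenic members at a ratio of 0.208 (0.0836 to 0.456) to APP/PS1 members. Plk2, a p53 target kinase, was at 215, 356, 541 and 215 CPM, highest in APP/PS1 members. Cdkn2a, the p16 and p19 gene widely used as a senescence mark, had 0, 0, 2 and 0 UMIs. Cdkn2b, its neighbour for p15, was at 74.1, 73.6, 31.2 and 68.3 CPM. Among 16 apoptosis genes, 1 of 5 measured (Fas) was called higher and 0 lower in TERF2DN-Tg than in Wild-type members, beside 1.98% and 2.54% of all genes. None of that list was called in the other comparisons.

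**Figure D4:**
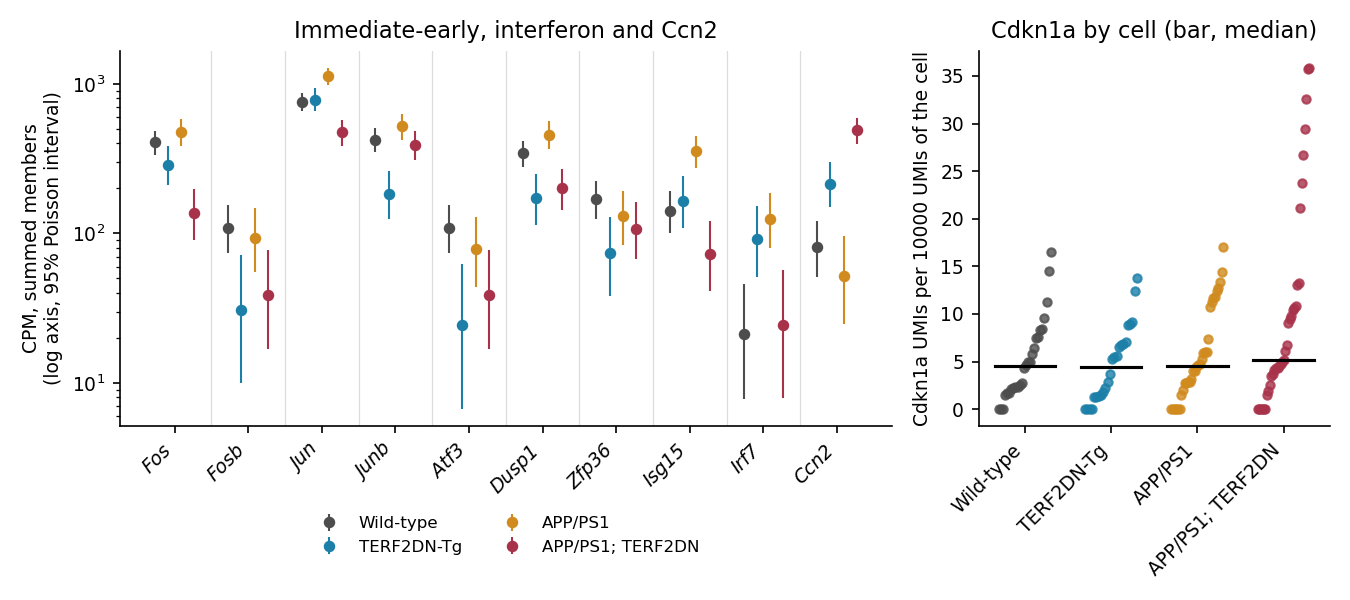
Left, levels of immediate-early, interferon and Ccn2 genes in endothelial cells, as CPM of the summed cells of each library on a log axis with exact 95% Poisson intervals. Right, Cdkn1a UMIs per 10000 UMIs in each cell, by library, with the median as a bar: medians lie between 4.45 and 5.12, and 7 APP/PS1; TERF2DN cells lie above 17.1, the highest cell of the other libraries.

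Secreted genes often read as part of a senescence programme were called more in the double transgenic library, largely through the Cytl1 cells. Of 28, 9 were measured, and 5 were higher and 0 lower than in APP/PS1 members (Igfbp3, Igfbp4, Timp2, Angptl4 and Spp1, median log2 ratio 1.16, beside 4.19% higher and 3.77% lower of all genes). Igfbp3 was at 17.6, 42.9, 93.7 and 298 CPM, and without the Cytl1 cells at 12 CPM in the double transgenic library. Igfbp4 was at 7.05, 0, 15.6 and 180 CPM, and without those cells had 0 UMIs there. Spp1 (osteopontin) was at 113, 12.3, 10.4 and 229 CPM, with 37 of its 47 double transgenic UMIs in 1 cell, and gated microglia of that library held 1199.69 CPM. Without the Cytl1 cells 2 of 7 were called (Angptl4 and Spp1), and without the mixed cells 3 of 8 (Igfbp3, Igfbp4 and Angptl4). Timp3, an inhibitor of matrix proteases, was at 878, 877, 1671 and 1756 CPM, from 22, 21, 28 and 30 cells, higher in both APP/PS1 libraries than in both others.

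The interferon-stimulated genes Isg15 and Irf7 were highest in APP/PS1 members. Of 28 interferon and MHC class I genes, 2 of 16 measured (Isg15 and Irf7) were higher and 0 lower than in Wild-type members (median log2 ratio 0.58, beside 2.03% and 2.18% of all genes), and 0 were higher and 3 lower (Isg15, Irf7 and Iigp1) in double transgenic than in APP/PS1 members (median -0.31, beside 4.19% and 3.77%). Against TERF2DN-Tg members, 0 of 17 were higher and 2 lower (Ifit1 and Ifit3, median -0.07, beside 4.45% and 3.29%). Isg15, a ubiquitin-like modifier, was at 141, 166, 354 and 73.2 CPM, from 8 of 26, 12 of 24, 20 of 32 and 8 of 35 cells. In Wild-type members 21 of its 40 UMIs were in 1 cell. The ratio of double transgenic to APP/PS1 members was 0.207 (0.11 to 0.365). Irf7, the factor that amplifies the interferon response, was at 21.2, 92, 125 and 24.4 CPM, from 5, 6, 11 and 5 cells. Isg15 in gated microglia lay between 12.4 and 22.9 CPM and was seen in 4.31% to 10.2% of those cells.

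Some genes ordered the libraries by 1 allele whatever the other, with the lowest CPM + 20 of the 2 libraries that carry it at least 1.5 times the highest of the 2 that do not. This held upward for 0.805% and downward for 0.894% of 2237 genes by TERF2DN, or 18 and 20 genes, and upward for 1.48% and downward for 0.76% by APP/PS1. The TERF2DN balance was not stable: it was 4 upward and 26 downward without the highest cell of each gene and library, 18 and 43 with per-cell means, and 10 and 4 at a minimum of 200 CPM. Ccn2, a matricellular target of YAP, was the widest by TERF2DN, at 81.1, 215, 52 and 488 CPM, from 10, 9, 6 and 19 cells. In TERF2DN-Tg members 24 of its 35 UMIs were in 1 cell, and without the highest cell of each library its log2 ratio to Wild-type was 0.27, while 7 double transgenic cells held 5 UMIs or more. Mal, a membrane raft protein, was at 1111, 1827, 1176 and 1936 CPM, from 22, 23, 27 and 31 cells. Hbegf, a growth factor of the EGF family that is itself an immediate-early gene, was at 141, 55.2, 135 and 68.3 CPM. By APP/PS1, Gja4 was at 28.2, 24.5, 115 and 117 CPM, an order that ended without the Cytl1 cells, where it was at 24 CPM in the double transgenic library. Sox18, a factor of arterial specification, was at 106, 92, 187 and 200 CPM, and Foxo1, which keeps endothelium quiescent, at 134, 129, 62.5 and 58.5 CPM. Itih5, a hyaluronan-binding protein, was at 1911, 1380, 822 and 673 CPM, from 24, 24, 28 and 22 cells. Ndnf, a secreted neurotrophic factor, was at 423, 276, 130 and 73.2 CPM. In these downward genes the order within each pair also had Wild-type above TERF2DN-Tg and APP/PS1 above double transgenic members.

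Metabolic genes lay level. None of the 23 measured oxidative phosphorylation genes and none of the 9 measured glycolysis genes passed the call in any of the 4 comparisons, with medians between -0.04 and 0.09 for the first and between -0.20 and 0.18 for the second. None of the 9 or 10 measured basement membrane genes was called. In double transgenic members, Apoe, which carries lipids between cells, was at 6711 CPM against 2126, 3489 and 1926 CPM in the Wild-type, TERF2DN-Tg and APP/PS1 members. Of its 1376 UMIs 1043 were in 1 cell, and without the mixed cells it was at 1557 CPM there. Gated microglia of the double transgenic library held 22753 CPM of Apoe.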

How the data were processed

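The deposited files are gene by barcode matrices of UMI counts, 1 per library, which per the file headers came from Cell Ranger 6.1.2; the submitters' processing notes name mm10. Genotypes came from the labels. The members and gene lists were chosen with earlier results of these data known. Rows that share a gene symbol were added, and the older symbol Cyr61 was the only listed one without a match. No column of another series was present (0 unused columns). Counts were summed over the members of a library and scaled to 1000000 (CPM). Exact Poisson intervals, exact conditional binomial intervals of ratios and limits for a count of 0 (3 UMIs) are at 95% and cover counting error only. With 1 library per genotype no test was made.

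Besides the listed genes, those named were the 8 highest and 8 lowest ratios per comparison, or gaps per ordering by allele, at 100 CPM or more, with UMIs in at least 5 members of the higher library and at least 2 times the CPM of the gated microglia. Mitochondrial, ribosomal, haemoglobin, sex-linked and unnamed genes were left out, and the text describes part of those chosen. A gene counted in the carrier list is not reported here. Gated microglia are passing barcodes with at least 2 of P2ry12, Tmem119 and Cx3cr1, no Mrc1 or Cldn5 and at most 1 of the 6 endothelial genes. No doublet caller was used in the main analysis. As an alternative, Scrublet scores marked 466, 215, 228 and 214 barcodes, of which 0 were members. Members with over 1% of UMIs on markers of another class, and members with 2 or more Cytl1 UMIs, were left out in alternatives chosen after seeing the data. Other alternatives changed the choice of cells, scaling, depth (2000 UMIs per cell), pseudocount and gene minimum. The ratio script was tested on simulated data. Promoter sequences are RefSeq's, of GRCm38.p6, matched by symbol for 5 of 5 genes shown. Python 3.11.15, numpy 2.4.6, pandas 2.3.3, scipy 1.17.1, scanpy 1.11.5 and matplotlib 3.10.9 were used.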

Additional observations from a re-analysis of the deposited data

Results flagged for a closer look

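In 3 genes the ratio of TERF2DN-Tg to Wild-type members and that of double transgenic to APP/PS1 members passed 2-fold in opposite directions. With 1 library per genotype the difference between the ratios was not tested. Alpl, the alkaline phosphatase of the arteriolar side, had a log2 ratio of 1.23 without the amyloid transgenes and -1.99 with them, from 19, 30, 45 and 9 UMIs in the Wild-type, TERF2DN-Tg, APP/PS1 and double transgenic members. Those UMIs lay in 9, 10, 14 and 6 cells. Without members that held an exclusion gene, the first ratio was 0.39, short of 2-fold. Lcn2, an iron-binding acute phase protein, had log2 ratios of -2.32 and 3.22, from 66, 5, 1 and 44 UMIs in 5, 3, 1 and 11 cells, and 53 of the 66 Wild-type UMIs were in 1 cell. Its first ratio was also short of 2-fold without members that held an exclusion gene (-0.43), without mixed cells (-0.62) and without each library's highest cell (-0.91). Nupr1, a stress-induced nuclear protein, had log2 ratios of -1.47 and 2.45, from 34, 5, 2 and 30 UMIs in 4, 4, 2 and 8 cells. Of the 30 double transgenic UMIs, 27 were in the 8 Cytl1 cells, and the 3 that remain without them, 18.0 CPM, leave no call.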

How the results depend on the processing

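Members numbered 16 in place of 26 in Wild-type with no P2ry12, Tmem119 or Mrc1 allowed, and 22 in place of 35 in double transgenic at 1000 genes and 5% mitochondrial UMIs. Counts of called genes were 83 (APP/PS1 against Wild-type), 89 (TERF2DN-Tg against Wild-type), 152 (double transgenic against APP/PS1), 148 (against TERF2DN-Tg), 38 (ordered by TERF2DN) and 50 (ordered by APP/PS1). In that order they were 632, 607, 494, 559, 171 and 198 with cells thinned to 2000 UMIs, 53, 36, 85, 80, 22 and 28 at a pseudocount of 50 CPM, 236, 232, 333, 346, 86 and 114 at a minimum of 50 CPM, 36, 26, 65, 57, 14 and 24 at 200 CPM, and 514, 513, 615, 655, 193 and 259 with any UMI. The per-cell mean gave 159, 174 and, ordered by TERF2DN, 61. A pseudocount of 5 CPM gave 125 in the first and 79 in the last. No exclusion gene gave 163 in the second and 62 ordered by TERF2DN. Genes above gated microglia numbered 53, 97, 84, 19 and 30 from the second on. The other settings moved these counts by less than 1.5 times. The share of calls that were higher was 52.6% in double transgenic against APP/PS1 members, 64.8% with size factors, 33.3% with per-cell means, 34.0% thinned and 25.5% without each gene's highest cell. Against TERF2DN-Tg it was 57.4%, and 66.7%, 45.4%, 43.1% and 38.1%. For TERF2DN-Tg against Wild-type it was 43.8%, and 33.9% with per-cell means and 27.8% without each gene's highest cell. Ordered by TERF2DN it was 47.4%, and 59.1%, 29.5%, 39.8% and 13.3% in the order of settings above. Ordered by APP/PS1 it was 66%, and 45.5% thinned and 44.2% without each gene's highest cell. The median of all genes, -0.08 in double transgenic against APP/PS1, was 0.05 with size factors and -0.17 thinned.

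Of 98 called log2 ratios checked among genes named here, 94 stayed past 2-fold with size factors, 88 without mixed cells and 77 with per-cell means. The number was 76 without each gene's highest cell, 72 thinned, 75 without the Cytl1 cells and 65 without members holding an exclusion gene. Without the Cytl1 cells, double transgenic against APP/PS1 turned to -0.23 for Cytl1, -0.83 for Igfbp4, -0.50 for Mgp and -1.83 for Igfbp3, and against TERF2DN-Tg to -0.0181 for Gja4, -0.0181 for Bgn and -0.98 for Igfbp3. These cells carried most of those UMIs. Without members holding an exclusion gene, Bmx turned to -0.48 and Spp1 to 0.89 in TERF2DN-Tg, and Vcam1 to 2.29 and Spp1 to 0.68 in APP/PS1, all against Wild-type. Apoe turned to -0.15 in double transgenic against APP/PS1 without mixed cells. Tmem100 turned to -0.21 in APP/PS1 against Wild-type with cells thinned. Ptgds turned to 0.34 in APP/PS1 against Wild-type without mixed cells, and to 0.0624 without its highest cell. Beyond that, the cause was not tested. No paired analysis was possible because each genotype has 1 library. A count of 0 UMIs allows 10.6 to 18.4 CPM.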
